A study of Mus musculus with 6 samples.

Results

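The spliceosome and hnRNP protein genes described here are the mouse genes whose symbol starts with Hnrn, Snrp, Prpf, Srsf, Sfrs or Sf3. The rule names a gene-name column that the scanner files used here do not show, so symbols were taken from RefSeq through the transcript identifier of each probe, and the brightest probe stood for a gene. It gave 64 genes of 19751 with a symbol on the array, measured by 102 probes. They are 12 snRNP proteins, 9 proteins of the SF3 complexes, 13 PRP factors, 10 SR proteins and 20 hnRNPs. Srsf11, whose symbol also fits the rule, was not matched to a probe in this way and is not among the 64. All 64 passed the filter on dim probes and were well above background in both channels on 6 of 6 arrays, so the filter left out no member.

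Retinas of adult male C57BL/6 mice were compared at day 7 after a treatment at 1 µM in the vitreous of the right eye, with a compound (the codes SH-42 and SH-80 are all that is known of them here) or with phosphate-buffered saline (PBS) as the control. There were 12 mice per group, and 4 retinas were pooled per tube. Each compound was measured on 3 dual-colour Agilent arrays, with the compound's RNA in the green channel (Cy3) and control RNA in the red channel (Cy5) by the labels, and no array had the dyes exchanged. Nothing in the labels says that every array had a control pool of its own, so the p-values measure only the spread between these arrays. If the same 12 control mice served both compounds, there were fewer control tubes than arrays, and control pools were shared. Values are log2 of Cy3 over Cy5. Since the deposited value table runs as Cy5 over Cy3, the direction against control is not settled: higher and lower mean Cy3 relative to Cy5, and each sign would turn if Cy5 held the treated RNA. In pooled tissue, fewer cells of a type and less RNA per cell cannot be told apart.

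The spliceosome removes introns from pre-mRNA and is built from small nuclear ribonucleoproteins (snRNPs). Most of them hold an RNA inside a ring of Sm proteins, with proteins of their own. U1 marks the start of an intron, U2 with the SF3a and SF3b complexes marks the branch point, and the U4/U6.U5 tri-snRNP brings the catalytic RNAs, with PRP factors as scaffolds, remodellers and regulators. SR proteins mostly promote, and hnRNPs often oppose, the use of nearby splice sites. In human patients, mutations of the tri-snRNP genes PRPF3, PRPF4, PRPF6, PRPF8 and PRPF31 cause retinitis pigmentosa, a loss of photoreceptors.

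The promoters of 3 members are printed because these genes lead the results below: Prpf19 and Prpf40b had the smallest p-values for the difference between the compounds, and Snrpf was the Sm gene highest on the SH-80 arrays. They were chosen after their values were seen. The windows are those of RefSeq on GRCm38.p6, from 250 bases before to 50 after a gene's start, 5′ to 3′ on the gene's strand, and capitals mark CCGGAA (the core of ETS-type sites), GGGCGG (the GC box) and CCAAT, on either strand. Prpf19 lies on the plus strand at chr19:10894981-10895280, Prpf40b on the plus strand at chr15:99294991-99295290, and Snrpf on the minus strand at chr10:93589609-93589908. For Prpf19 and Prpf40b the upstream one of 2 listed windows is shown.
Prpf19: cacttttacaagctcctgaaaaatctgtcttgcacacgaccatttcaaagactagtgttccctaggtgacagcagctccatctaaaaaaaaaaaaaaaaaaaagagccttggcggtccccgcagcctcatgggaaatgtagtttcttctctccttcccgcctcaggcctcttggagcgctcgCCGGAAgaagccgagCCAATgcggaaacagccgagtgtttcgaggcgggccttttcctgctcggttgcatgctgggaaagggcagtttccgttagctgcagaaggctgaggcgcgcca
Prpf40b: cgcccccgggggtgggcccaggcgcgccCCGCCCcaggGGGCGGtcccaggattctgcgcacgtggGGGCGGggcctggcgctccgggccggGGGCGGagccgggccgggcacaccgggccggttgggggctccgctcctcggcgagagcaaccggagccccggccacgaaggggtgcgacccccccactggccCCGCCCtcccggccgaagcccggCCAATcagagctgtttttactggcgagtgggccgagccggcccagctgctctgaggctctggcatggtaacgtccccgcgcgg
Snrpf: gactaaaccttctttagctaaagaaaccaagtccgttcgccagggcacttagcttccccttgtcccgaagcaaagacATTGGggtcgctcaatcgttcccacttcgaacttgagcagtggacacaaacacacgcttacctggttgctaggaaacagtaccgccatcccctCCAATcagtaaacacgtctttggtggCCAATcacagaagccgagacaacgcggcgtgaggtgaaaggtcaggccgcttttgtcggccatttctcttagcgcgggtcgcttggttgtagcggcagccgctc
The Prpf19 window held 1 CCGGAA and 1 CCAAT match, the Prpf40b window 5 GGGCGG matches and 1 CCAAT match, and the Snrpf window 3 CCAAT matches. Over the 75 windows of the 56 members in that table, 46.7% held CCGGAA against 14.9% of all 32851 windows. GGGCGG was in 62.7% against 35.7%, and CCAAT in 48.0% against 37.4%. TATAAA, on either strand and not marked by capitals, was in 9.33% against 13.6%. The windows of the members were also richer in G and C, with a median of 60.0% against 52.7%. A match is a description of the letters and not of a bound site.

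On the SH-80 arrays, most of these genes did not pass the test. The 8 that were higher in Cy3 hold 4 of 12 snRNP proteins, and the 4 that were lower hold 3 of 20 hnRNPs, whereas every call was lower when each array was centred on its median in place of loess. Past the threshold of 0.05 (limma, Benjamini-Hochberg over all features) were 12 of 64 members (18.8%), against 14.7% of the 24079 features tested. Of these, 8 were higher (12.5%, against 4.61% of all features) and 4 lower (6.25%, against 10.1%). With that median centring, 5 of the 8 higher genes (Prpf6, Sf3b2, Snrpc, Snrpd2 and Srsf3) turned to values between -0.11 and -0.01. That setting called 9 members, 0 higher and 9 lower, against 15.1% of all features. It moved the median of all features from -0.03 to -0.15 and that of the members from 0.02 to -0.26. At an unadjusted p under 0.05 there were 26 members (40.6%, against 35.5%). On the SH-42 arrays 0 of 64 members passed (limma, Benjamini-Hochberg), against 0.602% of 24080 features, and 18 had an unadjusted p under 0.05 (28.1%, against 23.4%). That SH-42 count was 39, all lower, under median centring, against 37.5% of all features. It was 11 without background correction (13.3%), 7 with the deposited value table (15.7%) and 3 with the processed signals (13.4%). Over all 64 genes the median log ratio was 0.01 for SH-42 and 0.02 for SH-80, against medians of -0.03 for both over all features. The comparisons with control may share control pools, so their values stand side by side.

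**Figure D1:**
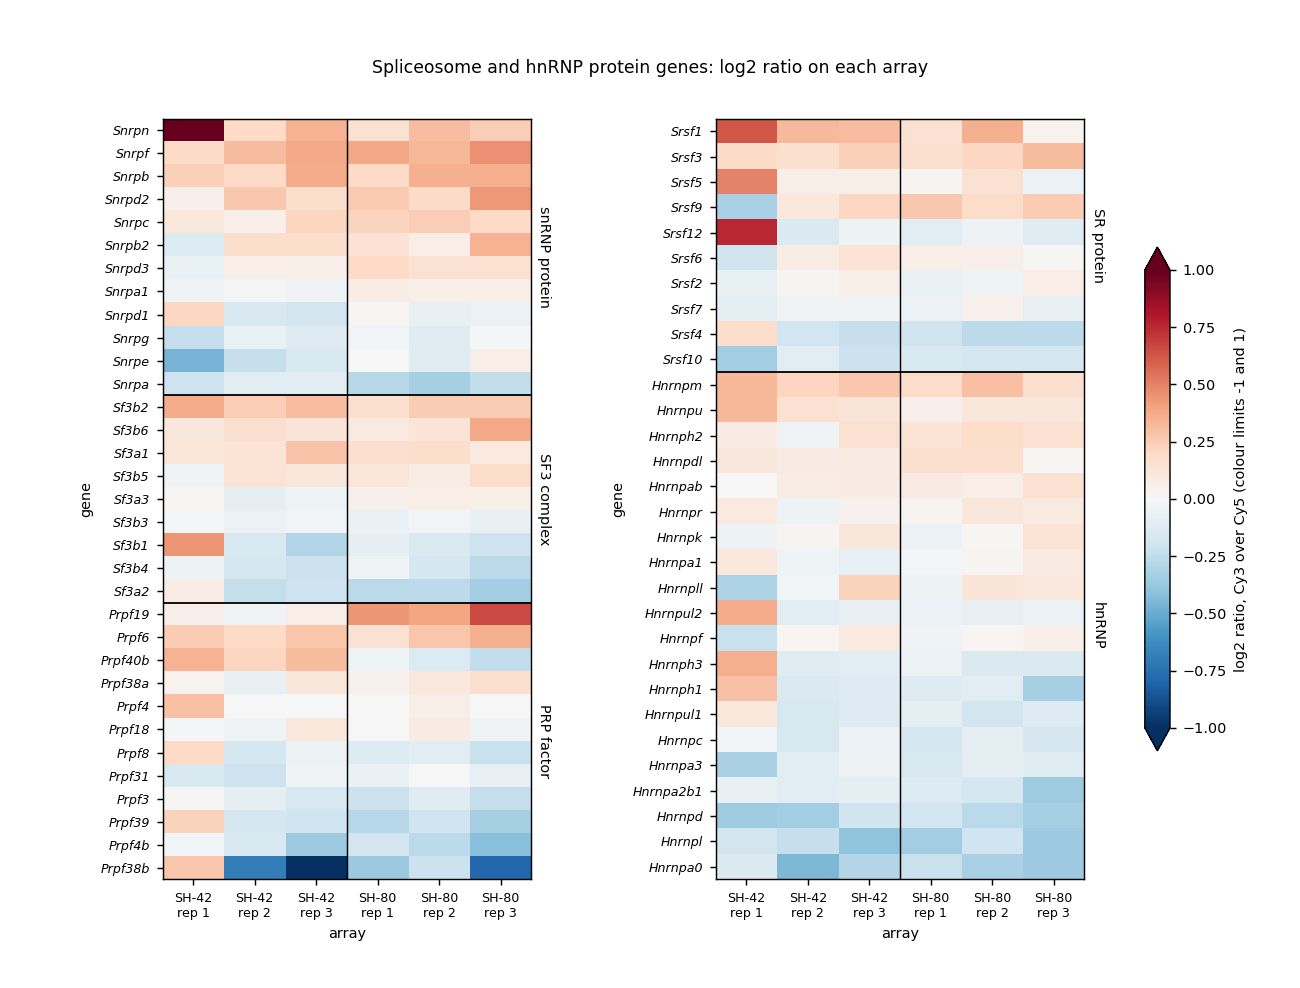
Log2 ratio of Cy3 over Cy5 for 63 of the 64 genes (rows, by role and mean) on each of the 6 arrays (columns), as colour with limits at -1 and 1. SH-42 replicate 1 stands apart for several genes, such as Snrpn at 1.29 and Srsf12 at 0.76, and Prpf19 is high on the 3 SH-80 arrays.

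Among the 12 snRNP protein genes, 4 were higher on the SH-80 arrays, 1 was lower and 7 did not pass, with a median of 0.18. Over all features 4.61% were higher and 10.1% lower, shares that stand beside the counts of the other roles below as well. Snrpf, a subunit of the Sm ring, lay at 0.39, 0.33 and 0.46 on SH-80 replicates 1 to 3, a mean of 0.39 ± 0.0599 (log2 ± SE of the limma model, n = 3, adjusted p = 0.0265). On the SH-42 arrays it lay at 0.19, 0.31 and 0.38. Every array was above 0, and the compounds overlapped. Snrpb, the gene of the Sm ring proteins B and B′, lay at 0.20, 0.35 and 0.36 (0.30 ± 0.0630, adjusted p = 0.0339 by limma), and at 0.24, 0.20 and 0.37 with SH-42. Snrpd2, another ring subunit, lay at 0.26, 0.19 and 0.43 (0.30 ± 0.0717, adjusted p = 0.0448 by limma), and at 0.05, 0.27 and 0.17 with SH-42. For both genes all 6 values were positive and the compounds overlapped, although Snrpd2 was at -0.01 with SH-80 under median centring.

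Snrpc and Snrpa, both particular to U1, went apart by the probes used. Snrpc, the U1 protein that steadies the pairing with the start of the intron, lay at 0.22, 0.25 and 0.20 with SH-80 (0.22 ± 0.0555, limma adjusted p = 0.0473), and at -0.04 under median centring. Its SH-42 values were 0.10, 0.05 and 0.22, and its dimmer probe lay at -0.10 with SH-80. Snrpa, which binds a stem-loop of U1 RNA, lay at -0.27, -0.33 and -0.25 with SH-80 (-0.29 ± 0.0527, limma adjusted p = 0.0294) and at -0.20, -0.10 and -0.11 with SH-42. Both groups of arrays were below 0 for Snrpa, the SH-80 arrays lower and without overlap. The U2 proteins Snrpa1 and Snrpb2 did not pass, at 0.07 ± 0.0477 and 0.19 ± 0.0892 with SH-80, and neither did the ring subunits Snrpd1 (-0.04), Snrpd3 (0.17), Snrpe (-0.01) and Snrpg (-0.06).

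Of the 9 SF3 genes, which encode the U2 parts that hold the branch point, 1 passed on the SH-80 arrays. Sf3b2, a subunit of SF3b, lay at 0.16, 0.26 and 0.25 with SH-80 (0.22 ± 0.0545, limma adjusted p = 0.0459), which turned to -0.11 under median centring. With SH-42 it lay at 0.37, 0.25 and 0.31 (0.31 ± 0.0545, limma adjusted p = 0.0870), the smallest p of all members in that comparison. All 6 arrays were above 0 and the compounds overlapped. Sf3b1, the large subunit that contacts the branch point, lay at 0.44 on SH-42 replicate 1 and between -0.29 and -0.09 on the other 5 arrays. The other 7 SF3 genes ranged from -0.29 (Sf3a2) to 0.20 (Sf3b6) with SH-80.

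Among the 13 PRP factor genes, 2 were higher with SH-80 and 11 did not pass, and the range was the widest of the roles at -0.46 to 0.50. Prpf19, the scaffold and ubiquitin ligase of the Prp19 complex that joins the active spliceosome, lay at 0.44, 0.40 and 0.66 (0.50 ± 0.0682, limma adjusted p = 0.0242), the highest mean of the 64 members for SH-80; the lowest was -0.46 for Prpf38b, which did not pass, and the order would turn with the dyes. Prpf6, which bridges the parts of the tri-snRNP, lay at 0.16, 0.28 and 0.35 (0.26 ± 0.0589, limma adjusted p = 0.0390), and at -0.03 under median centring. Its SH-42 values of 0.26, 0.20 and 0.28 lay within the range of the SH-80 values. The other 4 tri-snRNP genes with a role in human retinitis pigmentosa did not pass in either comparison. With SH-80 they lay at -0.19 ± 0.0586 for Prpf3, 0.02 ± 0.0730 for Prpf4, -0.16 ± 0.0802 for Prpf8, the core of the catalytic centre, and -0.05 ± 0.0573 for Prpf31. With SH-42 they lay between -0.13 (Prpf31) and 0.10 (Prpf4).

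Of the 10 SR protein genes, Srsf3 passed with SH-80. This smallest SR protein lay at 0.16, 0.20 and 0.32 (0.23 ± 0.0559, limma adjusted p = 0.0457), at 0.19, 0.16 and 0.24 with SH-42, and at -0.07 with SH-80 under median centring. Srsf1, the founding member of the family, lay at 0.62, 0.32 and 0.31 with SH-42 (0.42 ± 0.0919, limma adjusted p = 0.123) and at 0.16, 0.36 and 0.04 with SH-80 (0.18, adjusted p = 0.208). By its brightest probe Srsf1 was above 0 on every array, highest on SH-42 replicate 1. Its other probes lay at 0.09 and 0.06 with SH-42, and at -0.26 and -0.20 with SH-80. The other 8 SR genes ranged from -0.24 (Srsf4) to 0.23 (Srsf9) with SH-80.

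All 3 hnRNP genes that passed on the SH-80 arrays were lower in Cy3, and the other 17 did not pass. Over all features 14.7% passed, and 10.1% were lower against 4.61% higher. Of the 20 hnRNP genes, 10 had a mean above 0 with SH-80. The highest was Hnrnpm at 0.21 ± 0.0566, short of the threshold (limma adjusted p = 0.0539). Hnrnpa0, a relative of hnRNP A1, lay at -0.23, -0.33 and -0.37 (-0.31 ± 0.0725, limma adjusted p = 0.0425), but its other probe went the opposite way, and the mean of both probes was 0.00. Hnrnpl, which binds CA-rich RNA, lay at -0.35, -0.20 and -0.36 (-0.30 ± 0.0666, limma adjusted p = 0.0372). Hnrnpd, which binds AU-rich elements of mRNAs, lay at -0.19, -0.27 and -0.33 (-0.26 ± 0.0601, limma adjusted p = 0.0396). With SH-42 all 3 genes were also below 0 on each array, between -0.45 and -0.14, and the compounds overlapped. Hnrnpd (-0.30, limma adjusted p = 0.104) and Hnrnpm (0.27, adjusted p = 0.108) were among the 5 members of smallest p for SH-42, with Sf3b2, Snrpf (0.30, adjusted p = 0.106) and Prpf40b (0.29, adjusted p = 0.114). Hnrnpa1, the classic silencer-binding hnRNP, lay between -0.08 and 0.11 on the 6 arrays.

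**Figure D2:**
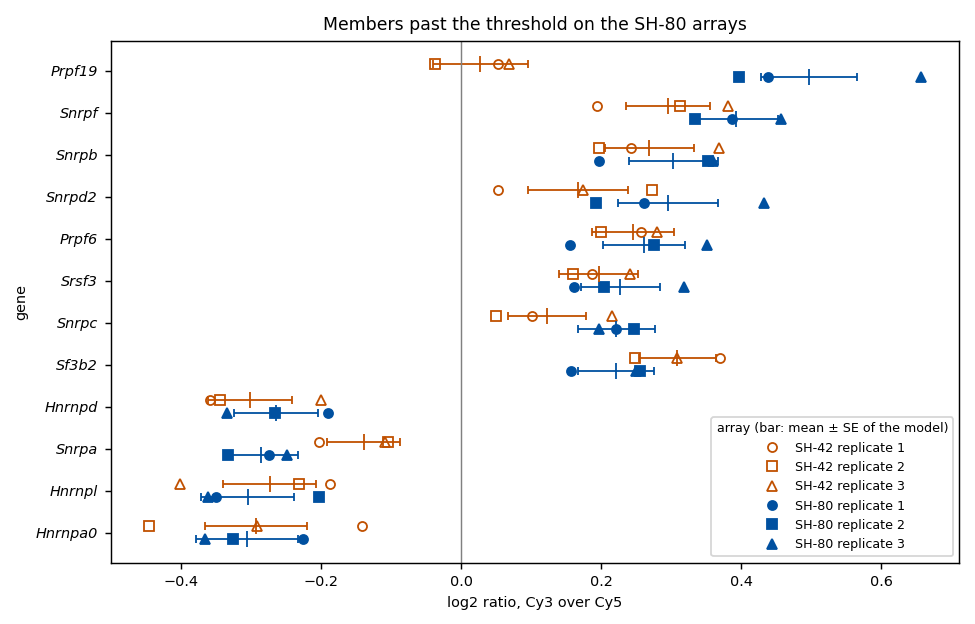
Log2 ratio of Cy3 over Cy5 of the 12 genes past the threshold on the SH-80 arrays, with a point per array (open for SH-42, filled for SH-80) and the mean ± SE of the model. Prpf19 is the gene whose SH-80 points (0.40 to 0.66) lie farthest from its SH-42 points (-0.04 to 0.07); with median centring Prpf6, Sf3b2, Snrpc, Snrpd2 and Srsf3 turn below 0.

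The count for SH-80 rested on the arrays and on the model. It was 0 without any 1 of the 3 SH-80 arrays, against 0% of all features (limma, 15 to 18 members at an unadjusted p under 0.05). Leaving out an SH-42 array, which enters this comparison only through the shared spread, gave 25 for replicate 1, 4 for replicate 2 and 6 for replicate 3. Over all features the shares were then 38.8%, 9.41% and 13.2%. SH-42 replicates 1 and 2 were on 1 slide and the other 4 arrays on another. With the slide as a fixed block the count was 0, against 0% of all features (limma, 9 unadjusted). On the SH-80 arrays alone it was 24, against 38.2%, and the second slide alone gives the same test. The count was also 0 with an intensity trend and robust estimation in limma, against 0% of all features (26 unadjusted).

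The compounds themselves were compared at the same dose and day, as SH-42 minus SH-80, in 1 pair. At an adjusted p under 0.05, 0 of 64 members differed (limma, Benjamini-Hochberg), against 0% of all features. At an unadjusted p under 0.05, 3 members did (4.69%, against 3.91%): Prpf40b, Prpf19 and Snrpe. The arrays of the 2 compounds did not overlap for 11 members (17.2%, against 13.5% of 24059 features with values on every array). These were Hnrnpa2b1, Hnrnpu, Prpf19, Prpf39, Prpf40b, Sf3a2, Sf3a3, Snrpa, Snrpa1, Snrpd3 and Snrpe.

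Prpf40b (NCBI gene 54614), a relative of the yeast U1 factor Prp40, lay at 0.34, 0.22 and 0.31 on the SH-42 arrays and at -0.04, -0.13 and -0.25 on the SH-80 arrays. By this brightest probe every SH-42 array was above 0 and every SH-80 array below. Under median centring both means were below 0, at -0.10 for SH-42 and -0.40 for SH-80. The difference was 0.43 ± 0.0875 (95% interval 0.22 to 0.64, limma adjusted p = 0.691). It was 0.46 with the slide as a block and on the second slide alone. These are the same estimate, of SH-42 replicate 3 against the SH-80 arrays, since the first slide held SH-42 arrays only. The difference was 0.30 under median centring and 0.31 by the mean of its probes. The dimmer probe of Prpf40b gave 0.19 ± 0.0822, and it lay above 0 on SH-80 replicate 2, at 0.08. By the brightest probe the normalized log2 signal in Cy3 was 10.83 to 10.99 on the SH-42 arrays and 11.02 to 11.11 on the SH-80 arrays. In Cy5 it was 10.50 to 10.67 and 11.09 to 11.36. Both channels were thus higher on the SH-80 arrays, Cy5 by more. In Cy3 the SH-42 arrays of the first slide lay at 10.84 and 10.83, and SH-42 replicate 3, on the slide of the SH-80 arrays, at 10.99.

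Prpf19 (NCBI gene 28000) lay at 0.05, -0.04 and 0.07 on the SH-42 arrays, all below the SH-80 values given above. The difference was -0.47 ± 0.0965 (95% interval -0.70 to -0.24, limma adjusted p = 0.691). It was -0.43 with the slide as a block and on the second slide alone, again the same estimate. In Cy3 the signal of Prpf19 was alike on all arrays, at 9.59 to 9.67 with SH-42 and 9.60 to 9.71 with SH-80. In Cy5, labelled control, it was 9.54 to 9.68 on the SH-42 arrays and 9.01 to 9.27 on the SH-80 arrays. The groups parted in the channel labelled control and overlapped in the channel labelled with the compound.

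Snrpe, a ring subunit, lay at -0.46, -0.23 and -0.15 with SH-42 and at 0.01, -0.12 and 0.07 with SH-80, without overlap. The difference was -0.27 ± 0.110 (limma adjusted p = 0.691), and its other probe gave -0.25 ± 0.0966. It shrank to -0.17 without SH-42 replicate 1 and to -0.14 with the slide as a block, and grew to -0.37 with scale normalization and to -0.50 under median centring. For Snrpa the difference was 0.15 (95% interval -0.03 to 0.33) and for Snrpd3 -0.15 (-0.33 to 0.03), both with a limma adjusted p of 0.691. For the Sm gene Snrpf it was -0.10, with an interval from -0.30 to 0.11, which leaves room for a difference in either direction.

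**Figure D3:**
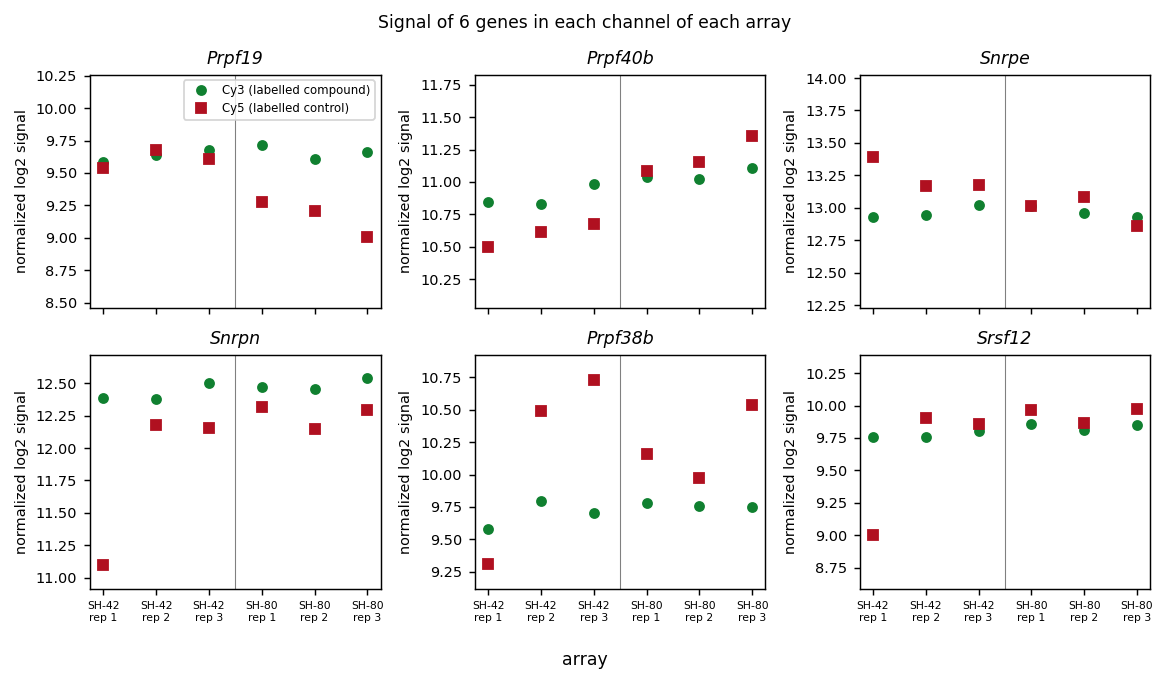
Normalized log2 signal of 6 genes in Cy3 (circles, labelled compound) and Cy5 (squares, labelled control) on each array; every panel spans the same height. Prpf19 stays between 9.59 and 9.71 in Cy3 and spans 9.01 to 9.68 in Cy5, and for Snrpn and Srsf12 the low Cy5 value belongs to SH-42 replicate 1.

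Most of these genes varied more between arrays in Cy5, labelled control, than in Cy3. The range over the 6 arrays had a median of 0.105 log2 units in Cy3 and 0.277 in Cy5 over the members, and 61 of 64 were wider in Cy5. Over all features the medians were 0.179 and 0.384, and 79.1% were wider in Cy5. The largest ranges in Cy5 belonged to Prpf38b (1.42), Snrpn (1.22) and Srsf12 (0.969). In Cy3 they belonged to Hnrnpl (0.302), Prpf40b (0.276) and Prpf4 (0.264). For these genes both arrays of the first slide were lower in Cy3 than every array of the second. Prpf4 lay at 9.19 on the first slide and at 9.43 to 9.46 on the second.

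Array SH-42 replicate 1 gave many of the extreme values. It was the highest or lowest of the 6 arrays for 47 members (73.4%, against 67.3% of all features). Snrpn, the Sm protein of neurons from an imprinted locus, lay at 1.29 there and at 0.15 to 0.35 on the other arrays. Srsf12 lay at 0.76 there and between -0.14 and -0.05 elsewhere. Prpf38b, a relative of the yeast factor Prp38, lay at 0.27 there and between -1.03 and -0.21 elsewhere. Without that array, the SH-42 value of Snrpn moved from 0.61 to 0.27, that of Srsf12 from 0.19 to -0.10 and that of Prpf38b from -0.48 to -0.86. For SH-42, 0 members then passed, against 1.86% of all features (limma, 27 unadjusted). Over the 64 genes, which are not independent, the correlation of its log ratios with each of the other 5 arrays was 0.075 to 0.322, and that of the other 10 pairs of arrays was 0.770 to 0.906. SH-80 replicate 3 held the extreme value of 51.6% of members, against 41.2% of all features.

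Markers of other cells moved on the same arrays. The defining markers of the retina were present on all arrays, 8 of 8 for rods, 5 of 5 for bipolar cells and 5 of 5 for Muller glia. Their median log ratios on SH-42 replicate 1 were 0.59 for rods, 0.59 for bipolar cells and -1.09 for Muller glia, against -0.17 to 0.06, -0.39 to -0.06 and 0.00 to 0.05 on the other arrays. The median log ratio of the 8 lens markers, all above background in either channel on every array, was 1.90, 0.34 and 0.59 on the SH-42 arrays and 3.29, 1.01 and 3.02 on the SH-80 arrays. Their summed signal spanned 426420 to 717342 in Cy3 and 99543 to 663843 in Cy5. The 8 microglia markers, also all above background, had a median of -1.67 on SH-42 replicate 1 and of 0.02 to 1.07 elsewhere, and summed to 19781 to 21413 in Cy3 and 8356 to 58887 in Cy5. The 5 markers of reactive glia, all above background as well, had a median of -1.56 on SH-42 replicate 1 and of 0.76 or more elsewhere, and summed to 47911 to 50768 in Cy3 and 15904 to 113591 in Cy5. No marker of these lists was at 0. Their part in the values of the splicing genes was not tested.

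Several probes of a gene often differed in sign. Of the 28 members with more than 1 probe, 14 had probes on both sides of 0 for SH-42 (50%, against 42.6% of 4204 such genes), and 21 for SH-80 (75%, against 44.6%). In Hnrnpa0 both probes passed on the SH-80 arrays with opposite sign, at -0.31 by the brighter and 0.31 by the dimmer (limma adjusted p = 0.0348 for the latter), as in 0.571% of such genes. Prpf38b had the widest spread, from -0.46 to 0.31. Of the other genes that passed, the other probe of Snrpc lay at -0.10 and those of Srsf3 at 0.25 and -0.23, and the probes of Snrpd2 at 0.30, 0.23 and 0.20 shared a sign. Prpf19, Snrpf, Snrpb, Prpf6, Sf3b2, Hnrnpl, Snrpa and Hnrnpd rest on 1 probe each. Probes can lie in different transcripts of a gene, and which transcript each detects was not tested.

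**Figure D4:**
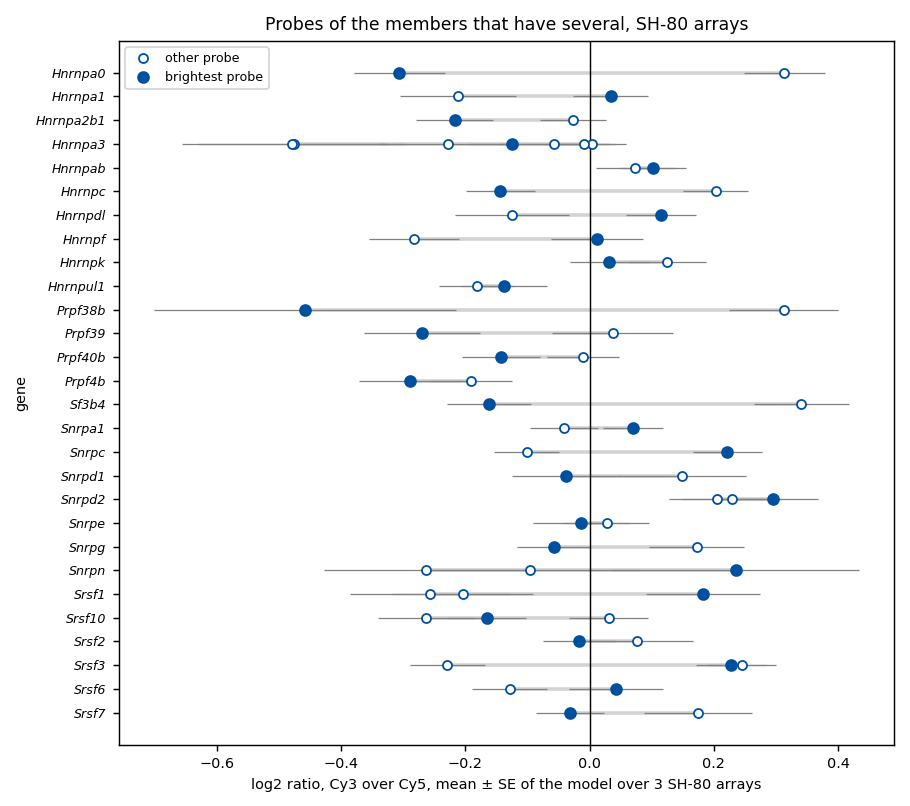
Log2 ratio of Cy3 over Cy5 on the SH-80 arrays (mean ± SE of the model, n = 3) for every probe of the 28 genes with several, the brightest filled. In 21 of the 28 genes the probes lie on both sides of 0, and for Hnrnpa0 they lie at -0.31 and 0.31.

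Other genes of the pathway outside the name rule were taken from lists of their own. Of 72 measured proteins of the spliceosome and the exon junction, 3 were higher and 3 lower with SH-80 (8.33%, limma, against the 14.7% of all features). Their median was 0.05, and 29 of the 72 had an unadjusted p under 0.05, against 35.5% of all features. Higher were the Sm-like protein gene Lsm4 (0.22), Bcas2 (0.21), a member of the Prp19 complex as Prpf19 is, and the helicase gene Ddx42 (0.26). Lower were Gemin5 (-0.36), which recognises snRNAs for Sm ring assembly, the helicase gene Ddx39b (-0.38) and Snw1 (-0.29). Of 57 splicing regulators, Raly, an hnRNP by family, was higher (0.68), and Tial1 (-0.43) and Rbm5 (-0.35) were lower, 5.26% in all. The median of the 57 with SH-80 was 0.01. For SH-42, 0 members of either list passed (limma), against 0.602% of all features. There 23 of the 72 and 15 of the 57 had an unadjusted p under 0.05, against 23.4%. For SH-42 minus SH-80 also 0 passed, and 3 in each list had an unadjusted p under 0.05, against 3.91%. In that difference the median of the 57 regulators was 0.11, with 41 above 0. That of the 72 proteins was -0.004, with 36 above 0. Over all features it was 0.015, with 53.6% above 0.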

How the data were processed

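RNA was measured on 6 arrays, 3 per compound, grouped by the treatment named in the labels. Per the file headers, the scanner files hold the intensity of each spot and its background in both channels and a log10 ratio of processed red over green. For Agilent Feature Extraction, version 11.0.1.1 stands in the headers and 9.3.2.1 in the submitters' processing notes; which of them applied is unknown. The deposited value table holds log2 of processed Cy5 over Cy3 plus a constant per array, found from its values (99.8% within 0.01 on each array, r = 0.9996 to 0.9998), with column medians of -0.0531, -0.0606, -0.0612, -0.0611, -0.0464 and -0.0754. Its scale and centring are so settled, and the direction it was meant to have is not.

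Median spot signals were background-corrected (normexp, offset 50) and normalized by loess within arrays. Of 39429 probes, 26055 (66.1%) matched a RefSeq symbol, and no coordinates of that table were used with array positions. Probes flagged well above background in Cy3 or Cy5 on 3 or more arrays were kept. The brightest probe per gene was kept, which gave 24080 features. One coefficient per compound was fitted over 6 arrays with limma 3.58.1 in R 4.3.3 (lmFit, eBayes, two-sided, Benjamini-Hochberg over all features, threshold 0.05). Probes of a gene were compared in a fit over all probes, with its own adjustment. The number of arrays limits the precision. None of 15 array pairs held identical values, and no spot was saturated (0). The fit was tested on simulated data. Figures used matplotlib 3.10.9 in Python 3.11.15.

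The values of 1 member are not reported here on their own; it stays in the counts. The members and lists were chosen with earlier results of these data known. Named were, per comparison, up to 8 members higher and 8 lower past the threshold, by size, with 1 sign on all arrays of a compound, filled up to 5 members by smallest p. Prpf3, Prpf4, Prpf6, Prpf8, Prpf31, Srsf1, Sf3b1, Hnrnpa1 and Snrpn were always named, as were the 3 widest ranges per channel and members with probes called in opposite directions. Members named in counts of 5 or fewer, for not overlapping or beside these were chosen after their values were seen. Replicate numbers did not pair the arrays: same-numbered arrays deviated together at r = -0.154, -0.431 and 0.181. Alternatives changed the background correction, the normalization of the dyes, the values used, the filter, several probes, the prior, the arrays fitted, the slide, the replicate number and leaving out each array.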

Additional observations from a re-analysis of the deposited data

Results flagged for a closer look

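Prpf40b and Snrpa1 stood out by their brightest probes, with every SH-42 array on 1 side of 0 and every SH-80 array on the other. This held for 2 of 64 members and for 361 of 24059 features (1.5%). For Prpf40b the difference SH-42 minus SH-80 was 0.43 ± 0.0875 (limma adjusted p = 0.691), with 3 of 3 SH-42 arrays above 0. Its dimmer probe did not keep the pattern, at 0.18 for SH-42 and -0.01 for SH-80, with SH-80 replicate 2 above 0 at 0.08. For Snrpa1, a protein of the U2 snRNP, it was -0.10 ± 0.0675 (limma adjusted p = 0.691), with 3 of 3 SH-42 arrays between -0.04 and -0.01 and 3 of 3 SH-80 arrays at 0.07; its other probe lay at -0.13 for SH-42 and -0.04 for SH-80. Neither difference passed the correction. Under median centring neither gene kept opposite signs, with means of -0.10 (SH-42) and -0.40 (SH-80) for Prpf40b and of -0.48 and -0.20 for Snrpa1.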

How the results depend on the processing

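Counts of members past the threshold moved with the processing. For SH-42 (0 members) the count was 11 without background correction (13.3% of all features), 3 with the scanner's processed signals (13.4%) and 7 with the authors' value table (15.7%). It was 39, all lower, with median centring (37.5%), which placed the median of all features at -0.25 and that of the members at -0.45. Under the other alternatives, leaving out each array in turn included, it was 0 (limma, 12 to 27 unadjusted). For SH-80 (12 members) the count was 5 with offset 0 (11% of all features), 7 with the processed signals (18.1%) and 1 with scale normalization (2.67%). It was 6 with the slide as a random block (9.87%) and 24 on the SH-80 arrays alone (38.2%), which is the same test as on the second slide alone. The count was 0, over all features too, with an intensity trend and robust prior (limma, 26 unadjusted) and with the slide as a fixed block (limma, 9 unadjusted). The slide effect of that block came from the SH-42 arrays alone, since the first slide held no SH-80 array. With the replicate block the SH-80 count was also 0 (limma, 19 unadjusted), against 0% of all features. Leaving out each array in turn gave 0 to 25 members, against 0% to 38.8% of all features. The count stayed between 8 and 16 under the remaining 6 (11.5% to 20.2% of all features), of which median centring called 9, all lower. For SH-42 minus SH-80, 0 members passed under every alternative run (limma), the replicate block included; a fit on the arrays of both compounds alone is the reported fit. Prpf19 and Snrpa kept their call for SH-80 in 14 of 21 alternatives and Snrpf in 13. In these tallies the SH-80 arrays alone and the second slide alone are counted separately, though they are the same test. Signs turned for SH-80 under median centring in Prpf6 (-0.03), Sf3b2 (-0.11), Snrpc (-0.04), Snrpd2 (-0.01) and Srsf3 (-0.07), and with the mean of probes in Hnrnpa0 (0.00). The causes were not tested. The 3 arrays per compound limit the precision, since every call for SH-80, of members and of all features, was lost without any 1 SH-80 array.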
